A study of Rattus norvegicus with 2 samples.

Results

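The retinoid genes described here are 9 genes of vitamin A handling and signalling, chosen by name: Crabp1, Crabp2, Rbp4, Stra6, Aldh1a1, Aldh1a2, Rara, Rarb and Rxrg. They are 9 of 39500 genes and unnamed transcripts on the array, and all 9 were found by matching the RefSeq accession of each probe to a rat gene symbol. Together they had 11 probes on 22 spots. The study measured RNA of the hypothalamus of spontaneously hypertensive rats (SHR), an inbred strain whose blood pressure becomes high with age. There was 1 pool of 5 males and 1 pool of 5 females, all aged 9 weeks and untreated as far as the labels say, with 100 ng of RNA from each rat. Each pool was labelled with Cy3 and measured on 1 single-colour Agilent array, so there are no replicates and the spread between rats was not measured. With 1 array per sex no statistical test is possible, and the values describe these 2 pools.

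Retinol, the blood form of vitamin A, travels bound to Rbp4 and enters cells through the receptor Stra6. Inside the cell it is oxidised to retinal and then, by Aldh1a1, Aldh1a2 and related dehydrogenases, to retinoic acid. Crabp1 and Crabp2 bind retinoic acid in the cytoplasm, and Crabp2 delivers it to nuclear receptors. The receptors Rara and Rarb bind DNA as pairs with a retinoid X receptor such as Rxrg, at direct repeats of a short half-site. In the rat hypothalamus, tanycytes, the ependymal cells that line the third ventricle, are known for retinol handling and for making retinoic acid. In the mouse, Aldh1a2 and Crabp2 mark fibroblasts of the meninges.

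The promoter sequences below, from 250 bases before to 50 bases after the transcript start in RefSeq's promoter table (build GRCr8), are given 5' to 3' on the gene's strand. Crabp2 and Rbp4 are shown because they had the largest differences between the pools, and Rarb because it held the direct repeat searched for. All 9 genes had a promoter in the table. Capitals mark the letters TATAAA in Crabp2 and Rbp4, and in Rarb a direct repeat of half-sites.
Crabp2 (chr2:175714612-175714911, plus strand): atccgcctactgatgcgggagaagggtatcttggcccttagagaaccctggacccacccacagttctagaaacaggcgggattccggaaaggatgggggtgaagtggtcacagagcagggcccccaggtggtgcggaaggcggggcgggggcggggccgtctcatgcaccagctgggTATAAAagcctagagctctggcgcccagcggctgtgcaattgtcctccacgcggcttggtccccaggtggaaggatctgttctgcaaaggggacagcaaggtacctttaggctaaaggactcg
Rbp4 (chr1:245313502-245313801, minus strand): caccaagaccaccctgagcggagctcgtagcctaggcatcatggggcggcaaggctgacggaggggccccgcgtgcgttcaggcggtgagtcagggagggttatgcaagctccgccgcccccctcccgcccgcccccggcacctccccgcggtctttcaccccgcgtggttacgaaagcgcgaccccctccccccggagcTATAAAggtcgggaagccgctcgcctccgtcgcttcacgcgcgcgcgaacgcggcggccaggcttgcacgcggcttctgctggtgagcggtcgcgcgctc
Rarb (chr15:11336142-11336441, plus strand): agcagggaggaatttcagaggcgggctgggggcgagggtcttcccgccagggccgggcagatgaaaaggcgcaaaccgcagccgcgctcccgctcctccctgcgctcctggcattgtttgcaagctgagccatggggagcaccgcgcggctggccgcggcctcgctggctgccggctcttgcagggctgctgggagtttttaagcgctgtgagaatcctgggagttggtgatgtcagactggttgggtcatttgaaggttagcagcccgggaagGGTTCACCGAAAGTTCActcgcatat
Half-sites were AGGTCA or AGTTCA or GGTTCA or GGGTCA, searched on both strands as a direct repeat with a spacer of 1, 2 or 5 bases of any kind (N). Among the 9 promoters the Rarb window alone held such a repeat, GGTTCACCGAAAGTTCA with a spacer of 5, beginning at base 25 after the start. A direct repeat with this spacer was found in 0.375% of 27457 rat promoters of the same length, and one with any of these spacers in 0.779%. TATAAA, also searched on both strands, began 73 bases before the start in Crabp2 and 50 bases before it in Rbp4, was not in the other 7 windows, and was in 14.3% of all promoters. A match describes letters and was not tested as a site.

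Of 58717 spots for rat transcripts, 71.6% passed the scanner's background test (were well above background) in male RNA and 73.0% in female RNA, and the arrays' number limits the precision. Signals are given as a percentage of the 75th percentile of the array, called scaled signal, and differences are male minus female on the log2 scale. Repeat spots of a probe gave a technical SD of the difference, which covers printing and scanning and no variation between rats or arrays. All 12 hypothalamic markers looked for were on the array and 11 were well above background on both, among them Avp, at 3103% in male RNA and 2813% in female RNA. For the 24140 genes and transcripts passing that test on both arrays, the median difference was -0.02, with 5% below -0.28 and 5% above 0.34. Spots at least 2-fold apart lay together in patches of the slide (73.0% of 1602 such spots, against 10.6% of the other measured spots), so a patch is named beside each retinoid gene with spots in one and beside other named genes whose value rests on such spots alone.

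Rbp4 and Crabp2, a carrier and a binding protein, stood highest in male RNA against female RNA, at 2.00-fold and 1.75-fold. Aldh1a2 was 1.43-fold higher in male RNA on 1 dim spot. Rxrg was 1.204-fold lower, and the other 5 genes differed by at most 1.12-fold on their brightest probe. All 9 were well above background on both arrays on at least 1 probe, 7 with a higher and 2 with a lower signal in male RNA.

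**Figure D1:**
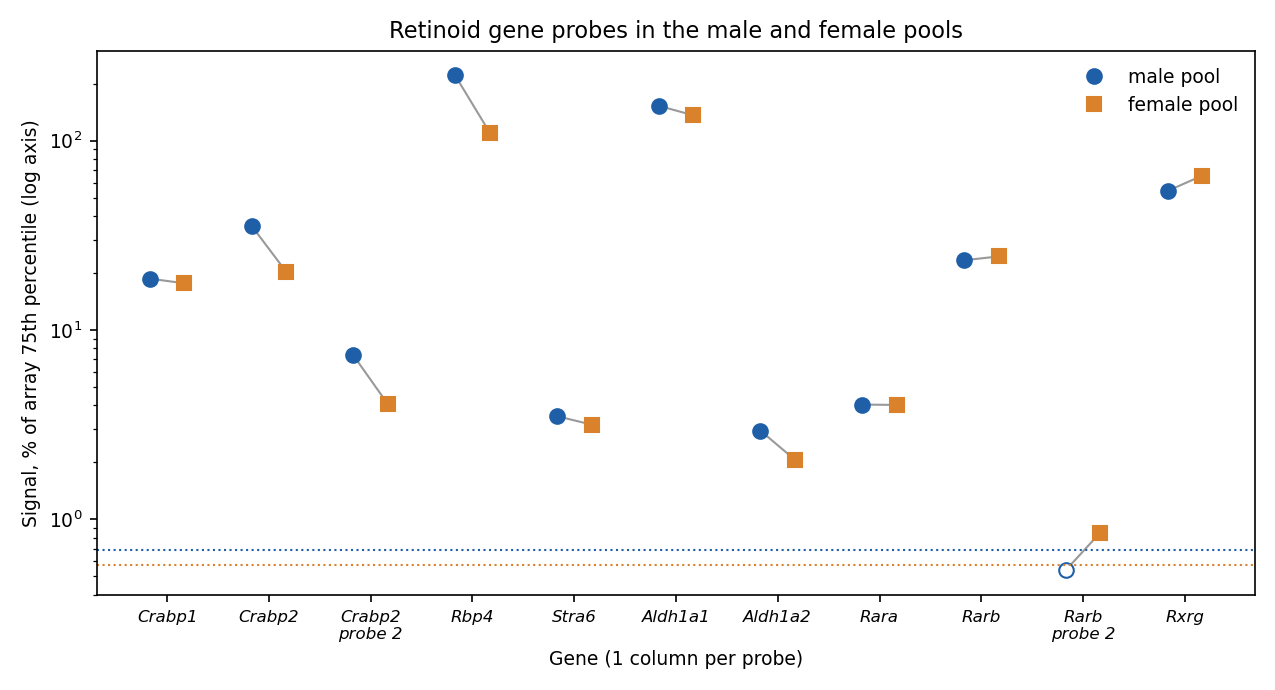
Scaled signal (percentage of the array's 75th percentile, log axis) of the 11 retinoid gene probes, 1 column per probe, with male RNA as circles and female RNA as squares. Dotted lines are the lowest signal of a probe well above background on each array, and the open circle, of the second Rarb probe, was not well above background. The lines of Rbp4, both Crabp2 probes and Aldh1a2 slope down most steeply towards female RNA.

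Rbp4 encodes the protein that carries retinol in blood, and is best known from the liver. Its probe lay on 2 spots with scaled signals of 208% and 234% in male RNA, against 104% and 117% in female RNA. Both male spots were above both female spots, but spots of a probe share the RNA of a single pool and are not replicates of the sex. The log2 difference was 1.001 with a technical SD of 0.051, and was the same to 2 decimals on each spot, neither of which lay in a patch. The difference stood at the 2-fold threshold itself: with median centring or normexp background correction it was 0.97. Of all genes brighter than the 75th percentile, 0.065% were at least as much higher in male RNA. The Rbp4 probe lay at percentile 93.9 of all probes for males and 89.4 for females.

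Crabp2 encodes the binding protein that hands retinoic acid to its receptors. Its brighter probe lay on 10 spots. Their scaled signals had a lowest, median and highest value of 32.8%, 35.1% and 39.2% in male RNA, and of 19.0%, 20.4% and 21.1% in female RNA. The 2 sets of spots did not overlap. The log2 difference was 0.81 (technical SD 0.027), with spots from 0.69 to 0.95. On the 7 spots outside patches it was 0.79, and on the 3 within patches 0.83. Among genes with a mean log2 signal between -2 and 0, 0.268% were at least as much higher in male RNA.

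The second Crabp2 probe gave the same picture at a lower signal. Its 2 spots had scaled signals of 7.23% and 7.48% in male RNA, against 4.26% and 3.86% in female RNA, and did not overlap between the pools. The log2 difference was 0.86 (technical SD 0.17), with 0.95 on the spot outside patches. Spots of a probe share the labelled RNA of one pool, so they measure the array and are not replicates of the sex. On the array, the brighter Crabp2 probe was at percentile 79.5 in male RNA and 73.2 in female RNA, and the dimmer one at 61.3 and 54.4.

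Crabp1 encodes a close relative of Crabp2. Its scaled signal was 18.7% in male RNA and 17.7% in female RNA on 1 spot, a log2 difference of 0.08 that is smaller than its technical SD of 0.13. Its percentile was 72.5 for males and 71.7 for females. Stra6, the receptor that takes retinol from Rbp4 into the cell, was dim, at 3.51% in male RNA and 3.17% in female RNA. Its log2 difference of 0.15 was also within its technical SD of 0.24. The Stra6 probe was at percentile 52.5 for males and 51.5 for females. Neither spot set the pools apart beyond the noise of a repeat spot.

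**Figure D2:**
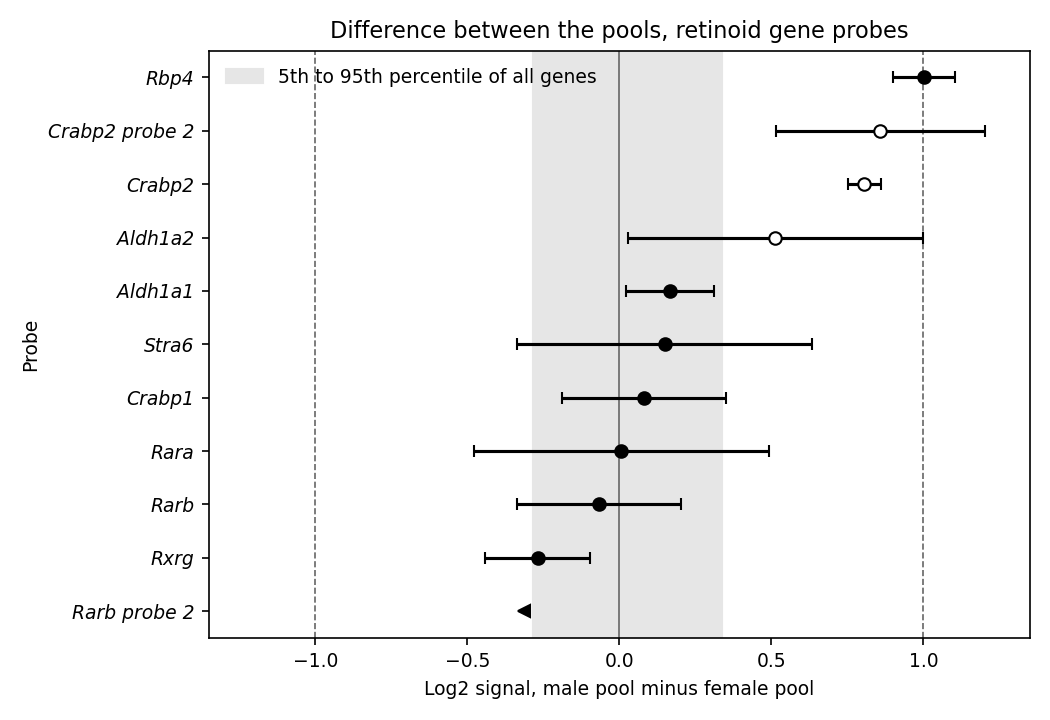
Log2 difference, male minus female, of each retinoid gene probe, sorted from the highest at the top, with bars of 2 technical SD either side. The grey band runs from the 5th to the 95th percentile of all genes (-0.28 to 0.34), dashed lines mark 2-fold, open circles have at least 1 spot in a patch, and the triangle of the second Rarb probe is a bound. Rbp4, both Crabp2 probes and Aldh1a2 lie to the right of the band.

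The 2 retinaldehyde dehydrogenases among the 9 genes make retinoic acid. Aldh1a1 had a scaled signal of 153% in male RNA and 136% in female RNA, at percentiles 91.8 and 90.9 of the arrays. Its log2 difference of 0.17 was 2.30 technical SD. Among genes brighter than the 75th percentile 2.13% were at least as much higher in male RNA.

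Aldh1a2 was near the middle of all probes, at percentile 50.4 for males and 46.5 for females, with scaled signals of 2.94% and 2.06%. The log2 difference was 0.51, at 2.12 technical SD, and 0.27 with normexp, whose added offset shrinks differences of dim probes by construction. Its only spot lay in a patch: 5 of the 18 nearest measured spots were at least 2-fold lower in male RNA and none was at least 2-fold higher. Among genes with a mean log2 signal between -6 and -4, 5.32% were at least as much higher in male RNA. No value outside patches could be had for this gene.

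Of the nuclear receptors, Rxrg was the one outside its technical noise. Rxrg encodes the retinoid X receptor gamma, the partner that pairs with other nuclear receptors and is known from striatum and pituitary. Its scaled signal was 54.3% in male RNA and 65.4% in female RNA on 1 spot outside patches. The log2 difference was -0.27, or -3.10 technical SD, and ranged from -0.30 to -0.24 over the other processing choices. Among genes with a mean log2 signal between -2 and 0, 1.28% were at least as much lower in male RNA. Its probe was at percentile 83.7 for males and 85.2 for females.

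Rara, the retinoic acid receptor alpha, had scaled signals of 4.04% in male RNA and 4.02% in female RNA. Its log2 difference of 0.01 was far within its technical SD of 0.24, and its sign changed with median centring and quantile normalization. Rarb, the receptor beta whose promoter carries the direct repeat printed above, was at 23.4% in male RNA and 24.5% in female RNA on its brighter probe, a log2 difference of -0.07 (technical SD 0.13). That probe was at percentile 74.98 for males and 75.36 for females. The second Rarb probe passed the background test for females alone, at 0.539% in male RNA and 0.853% in female RNA, which makes it at least 1.24-fold lower in males. Both Rarb probes were lower in male RNA, by a bound near the background on the second and by less than technical noise on the first.

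Set against the arrays as a whole, 1 of the 9 genes (Rbp4) was at least 2-fold higher in male RNA, where 2.54% of all 26113 genes and transcripts well above background on at least 1 array were. At 1.5-fold, 2 of 9 (Rbp4 and Crabp2) were higher, against 4.12% of all, and none was lower, against 2.72% of all. No retinoid gene was at least 2-fold lower, against 1.64% of all. Most of the large differences of the arrays lay at low signal, and among 12844 genes with a mean log2 signal above -3, 0.561% were at least 1.5-fold higher in male RNA. Rbp4 and Crabp2 were in that range. Of the 9, 5 were more than 2 technical SD apart (Rbp4, Crabp2, Aldh1a1 and Aldh1a2 higher and Rxrg lower in male RNA), against 11.6% of all genes well above background on both arrays in either direction. The median difference of the 9 was 0.15, against -0.02 for all genes.

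**Figure D3:**
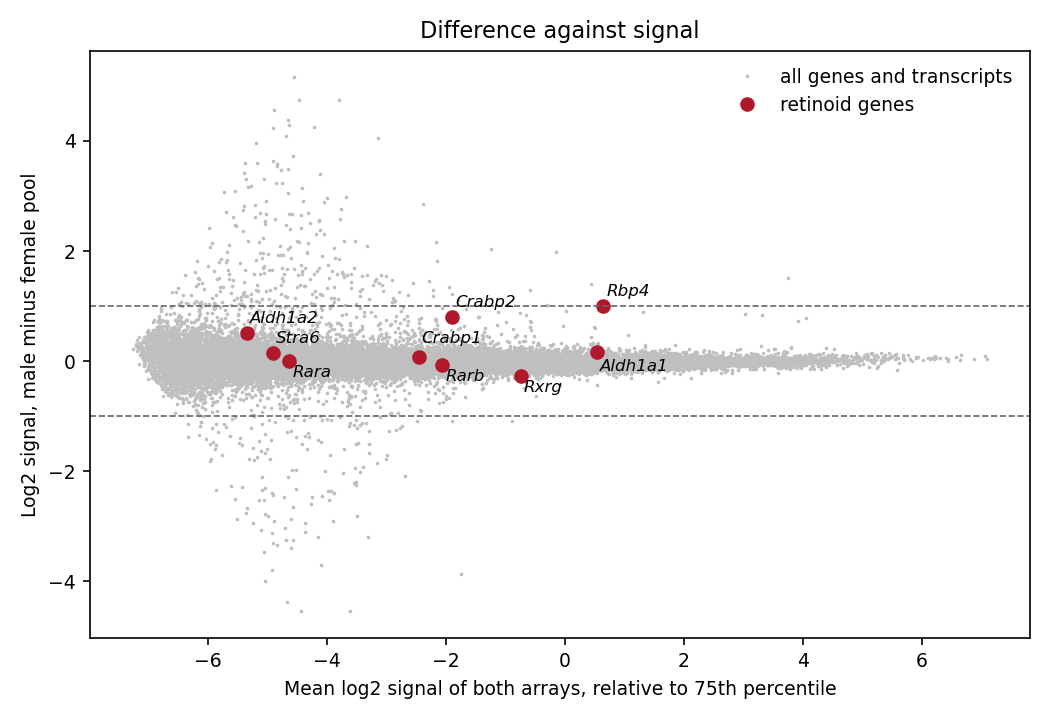
Log2 difference, male minus female, against the mean log2 signal of both arrays relative to the 75th percentile. Small grey points are the 24140 genes and transcripts well above background on both arrays, red points are the 9 retinoid genes on their brightest probe, and dashed lines mark 2-fold. Rbp4 and Crabp2 lie near the top of the grey points of like signal, some of which are higher, and the other genes lie lower among them.

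The wider retinoid pathway was followed through 61 further genes, of which 51 were on the array and 38 well above background on both arrays. Of these 38, 21 were higher and 17 lower in male RNA, with a median of 0.04. At 1.5-fold, 1 of the 39 measured on at least 1 array was higher and 1 was lower. Of all genes and transcripts measured likewise, 4.12% were higher and 2.72% lower. In the pathway, the higher one was Adh1c, an alcohol dehydrogenase gene, at 5.39% in male RNA and 3.40% in female RNA over 8 spots. Its log2 difference was 0.67, and 0.45 with normexp, which is under 1.5-fold. The lower one was Rbp7, a cellular retinol binding protein gene, at least 10.01-fold dimmer in male RNA on a single spot that lay in a patch. Its scaled signal of 6.87% in female RNA stood against 0.423% in male RNA, which was not well above background. With normexp the log2 difference of Rbp7 was -1.21.

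Proteins that move and store retinol went both ways. Ttr, which partners Rbp4 in blood and is abundant in the choroid plexus, was at 66.3% and 56.4% in the male and female pools, a difference of 0.23. Lrp2, the endocytic receptor megalin, was dim and at -0.46 (technical SD 0.24). Rbp2, Scarb1 and Rlbp1 differed by at most 0.06. Lrat, which esterifies retinol for storage, was at 0.53 and Rpe65, known from the visual cycle of the retina, at -0.36.

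Enzymes that oxidise or reduce retinol and retinal mostly differed little between the pools, with Adh1c the highest. Of those measured, 5 were higher and 5 lower in male RNA, from -0.14 to 0.67 with a median of -0.01. Only Adh1c was more than 2 technical SD apart. The lowest, Rdh14 at -0.14, had a technical SD of 0.13. Rdh10, which starts retinoic acid synthesis in embryos, was counted as higher at 0.00. Dhrs3, which reduces retinal back to retinol, was at -0.03. Rdh12 was at 0.47 (technical SD 0.24). Aldh1a3 and Aldh8a1, the other retinaldehyde dehydrogenases with a probe, failed the background test on both arrays. Cyp26b1, which breaks retinoic acid down, was higher in male RNA by 0.49 (technical SD 0.13), at 8.24% in male RNA and 5.87% in female RNA. Cyp26a1 failed that test on both arrays.

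Among the other receptors and partners, Rarg was at 0.13, Rxrb at -0.09, Rxra at -0.18, and Fabp5, which carries fatty acids and retinoic acid, at 0.10 over 9 spots. Of the coregulators that modify transcription with these receptors, Nrip1 was at -0.05. Ncoa2 was at -0.02 on its brighter probe, whose spot lay in a patch. Its dimmer probe, outside patches, gave -0.18 (technical SD 0.25). Ncor1 was at -0.12 on the brightest of its 5 measured probes and at -0.01 on a probe of similar signal. Its dimmer probes gave 0.02, 0.16 and -0.25, and the mean over its probes was -0.04. Of 8 measured genes known to respond to retinoic acid, 6 were higher in male RNA and 2 were lower, and their median was 0.20. For the 7 with a value outside patches the median was 0.13. Gprc5c and Rai14, counted as higher, and Rai2, counted as lower, were within their technical SD. The largest difference of the 8 was that of Rarres2, the chemerin gene, at 0.48, with 0.67 on its second probe. Meis1, at 0.34, had its spot in a patch, Tgm2, a transglutaminase gene, was at 0.32, and Rai1, a chromatin factor gene, was at -0.25.

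Marker genes of cell types in or around the hypothalamic block also differed between the pools. All 10 meningeal fibroblast markers were higher in male RNA, by 0.50 to 1.82 with a median of 1.25. The highest was Ogn, an extracellular matrix gene, on a spot in a patch, and its other probe, outside patches, was at 1.60. Their summed scaled signal was 475% in male RNA and 192% in female RNA, and none was below background. Igf2, at 220% in male RNA and 83.0% in female RNA, and Col1a2, at 104% and 42.7%, were the brightest of them. Both differences, 1.41 and 1.29, were larger than those of Rbp4 and Crabp2. The part of meningeal tissue in the differences of Rbp4, Crabp2 and Aldh1a2 was not tested. In bulk tissue, more cells of a type and more RNA per cell cannot be told apart.

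**Figure D4:**
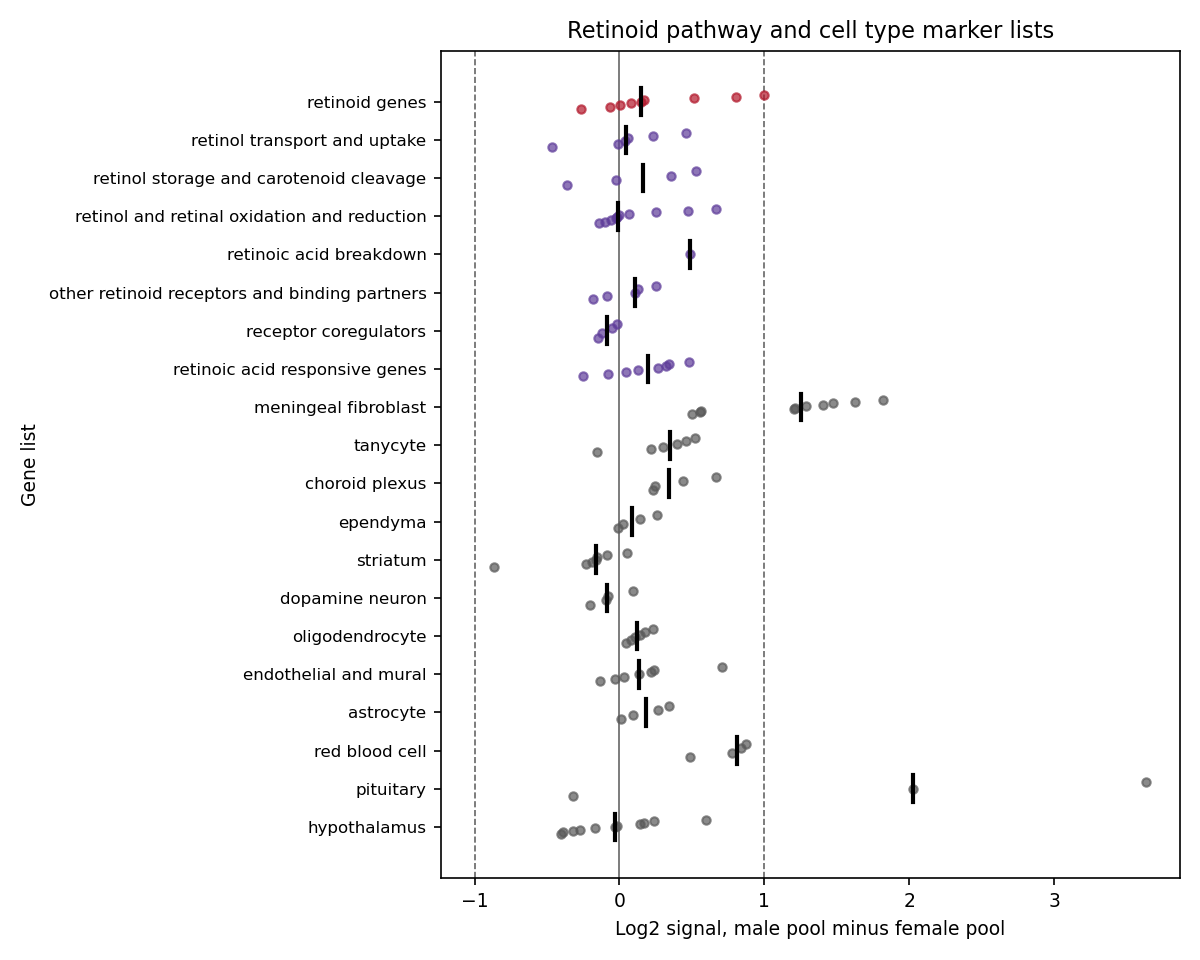
Log2 difference, male minus female, of genes well above background on both arrays, in the retinoid genes (red), the retinoid pathway lists (purple) and the cell type marker lists (grey). Each point is a gene, black bars are list medians and dashed lines mark 2-fold. The meningeal fibroblast markers all lie to the right of 0, with a median of 1.25, and the striatum markers mostly to the left.

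The 4 red blood cell markers were higher in male RNA too, with a median of 0.81 and a summed signal of 2352% in male RNA and 1366% in female RNA. Of the tanycyte markers, 5 were higher in male RNA and 1 was lower, and the median was 0.35. Their summed signals were 164% in male RNA and 160% in female RNA. The lower one, Crym, was the brightest, at 103% in male RNA and 115% in female RNA over 10 spots. Its log2 difference was -0.15 (technical SD 0.023). Vim, the vimentin gene, was at 0.46. Gpr50, an orphan receptor gene above background in female RNA alone, was at least 1.53-fold lower in male RNA, near the background. With normexp its log2 difference was -0.10. Rax, a defining tanycyte regulator, failed the background test on both arrays. The 4 choroid plexus markers with a signal on both arrays were all higher in male RNA on their brightest probe, by 0.23 to 0.67. Their summed signal was 86.9% in male RNA and 72.8% in female RNA. Ttr was itself among these 4 choroid plexus markers, at 0.23, and its 66.3% and 56.4% made up most of both sums. Kcnj13, a potassium channel gene of that tissue, was at least 3.82-fold higher in male RNA, near the background, and at 0.64 with normexp. Kl, the klotho gene, was at least 1.14-fold lower, a bound of -0.19 near the background and within its technical SD of 0.25. The value of 0.67 was that of Prlr, the prolactin receptor gene, on a spot in a patch, and its other probe, outside patches, was at -0.20. The part of these cell types in the values of Stra6 and Ttr was not tested.

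Striatum markers, set beside Rxrg, had 1 gene higher and 6 lower in male RNA, with a median of -0.16 and summed signals of 355% in male RNA and 391% in female RNA. Drd1 and Drd2, dopamine receptor genes, were at -0.23 and -0.16. Dopamine neuron markers, set beside Aldh1a1, had 1 gene higher and 3 lower in male RNA and a median of -0.09. The hypothalamic markers had 4 genes higher and 7 lower in male RNA, with a median of -0.03. Ghrh, whose peptide releases growth hormone, was highest at 0.60, with 0.70 and 0.67 on its other probes. Crh, the corticotropin releasing hormone gene, was lowest at -0.40, from a patch, and its other probe gave -0.54. Pituitary markers went both ways: Tshb and Cga, hormone subunit genes, were at 3.64 and 2.03, while Prl, the prolactin gene, was at least 7.91-fold lower in male RNA and Pou1f1, a transcription factor gene, was at -0.32. The spots of Cga, Prl and Pou1f1 lay in patches, and with normexp Tshb was at 1.80 and Prl at -1.22. Gh1, the growth hormone gene, failed the background test on both arrays. Oligodendrocyte, astrocyte, ependymal, and endothelial and mural markers had medians between 0.09 and 0.18, and Kdr, a receptor of endothelial cells, was at 0.70. Whether any of these moved Rxrg or Aldh1a1 was not tested.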

How the data were processed

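RNA of the hypothalamus was pooled per sex and measured on 1 Agilent array each. Per the file headers, the deposited array files hold the scanner software's processed spot intensity, background-subtracted with no scaling between arrays (Feature Extraction 11.5.1.1, protocol GE1_1105_Oct12, design build rn4); version 9.1 is named in the submitters' processing notes. The deposited value table holds intensity values that match, within 0.402%, the processed signal as a percentage of each array's 75th percentile. Both arrays were on 1 slide and scanned together.

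Spots with an outlier flag (664 of 58717) were dropped, and saturation was absent. The 75th percentile over rat spots (2203 units for males and 2254 for females) was subtracted on the log2 scale, and spots of a probe were averaged. Probes with over 50% of their spots flagged as well above background passed the background test. A side that was not was raised to the lowest signal of such a probe (15.1 units on the male array, 12.9 on the female array), which gives a bound. RefSeq accessions named 21109 of 45598 probes (46.3%) through a GRCr8 gene table used for names. The brightest measured probe stood for a gene, and every probe of the 9 genes was used. A spot was in a patch when at least 2 of its 18 nearest measured spots of other probes were 2-fold apart in 1 direction. Every retinoid gene is named. Of the other lists, genes at least 1.5-fold apart, the 2 with the largest difference and genes that complete a role could be named. Some genes of these lists are not reported here. The genes, lists and patches were chosen with earlier results of these data known. Alternatives were normexp (limma 3.58.1, offset 50, on the median spot and background signals, as no mean signal column was used), median centring, quantile normalization, 2 other filters, the mean over probes, outlier spots kept, the deposited table, and spots in patches left out. The steps were tested on simulated data.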

Additional observations from a re-analysis of the deposited data

How the results depend on the processing

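With 1 array per sex there is no replicate to leave out. No paired analysis was possible because each sex has a single pool. The count of retinoid genes at least 2-fold apart was 1 (Rbp4) in 7 of the 9 alternatives and 0 with normexp background correction and with median centring, where Rbp4 was at 0.97. The median difference of the 9 genes ranged from 0.09 (normexp) to 0.16 (mean over probes), against a main value of 0.15. Rbp4, Crabp2, Aldh1a1, Crabp1, Stra6, Rarb and Rxrg kept their sign in all 9 alternatives, and Aldh1a2 in the 8 that gave it a value, since without spots in patches it had none. Rara changed sign in 2. Crabp2 ranged from 0.70 to 0.83, Aldh1a2 from 0.27 to 0.51 and Stra6 from 0.07 to 0.15, each lowest with normexp. The second Rarb probe ranged from -0.66 without a floor to -0.09 with normexp. Dim probes limit what can be said of Stra6, Aldh1a2, Rara and the second Rarb probe, whose technical SD was 0.24 to 0.25. Normexp also shrank the differences of dim genes outside the 9, Rbp7 to -1.21, Tshb to 1.80, Prl to -1.22 and Kcnj13 to 0.64. Gpr50 shrank to -0.10 and Adh1c to 0.45. Prlr turned to -0.20 without spots in patches.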
